A study of Mus musculus with 20 samples.

Results

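Cytochrome c oxidase, complex IV of the mitochondrial respiratory chain, is built largely from nuclear genes, and 31 of these were followed in mouse gastrocnemius, a calf muscle. The members were taken by gene symbol from a deposited table of 31618 genes and comprise 16 structural subunits and 15 factors that act in assembly of the enzyme or in expression of its mitochondrially coded core. A filter of a mean of at least 1 FPKM (fragments scaled by transcript length and sequencing depth) over all libraries left 29 members to be tested, and Cox6b2 and Pet117 lay under it. Poly(A)-selected RNA of male C57BL/6N mice had been sequenced in 20 libraries, 5 each from Control, TM (tetrathiomolybdate), NAC (N-acetylcysteine) and TM+NAC. The treated groups were labelled 28 days and the Control group carried no day. The title of the series asks whether tetrathiomolybdate acts on muscle function by way of reactive oxygen species. Strain, sex and muscle were shared by all groups and no engineered allele was named. No dose, route or age stood in the labels, and they did not say that the libraries came from separate animals, so the p-values measure the spread between libraries, which may be technical.

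Complex IV passes electrons from cytochrome c to oxygen and pumps protons across the inner mitochondrial membrane. Its catalytic core is coded in mitochondrial DNA and carries haem a and copper centres, which dedicated factors build and insert, while the nuclear subunits surround that core, stabilise it and tune it. Several nuclear subunits exist as paralog pairs, with a form found in heart or skeletal muscle and a form found in most tissues. Tetrathiomolybdate is a copper chelator, and N-acetylcysteine is a cysteine precursor used as an antioxidant.

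The libraries held 54.7 M to 90.7 M counts (M, 1e6). All 8 markers of skeletal muscle fibres passed the filter and summed to 115167 to 165810 CPM. CPM here always means counts per 1e6 after TMM scaling (trimmed mean of M-values) of the libraries. A single library stood apart: NAC 4 was the deepest and had the highest share of counts on mitochondrially coded genes, 20.3% against 13.1 to 18.9% in the other 19 libraries. Its summed level of the 16 nuclear subunits was 1862 CPM, against 2505 to 3673 CPM elsewhere, and its summed level of the mitochondrially coded mt-Co1, mt-Co2 and mt-Co3 was 94059 CPM, against 54563 to 83170 CPM elsewhere. Many of the counts, medians and folds that rest on NAC 4 are therefore given with and without it, and the others include it. Of the 10 neuron markers, 4 passed the filter and none was at 0 in all libraries. They summed to 11.4 to 18.7 CPM in Control, 16.4 CPM in TM 1 and 15.3 CPM in NAC 4, and to 53.1 to 91.7 CPM in the other 13 treated libraries. Their part in any difference between groups was not tested.

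In Control muscle the heart and muscle forms of the paired subunits stood at or near the top of the deposited FPKM values, which are scaled by length. Cox6a2, the heart and muscle form of subunit 6a, had the highest level, 563 ± 74.3 FPKM (mean ± SD, n = 5), and was 39.3 times its ubiquitous paralog Cox6a1 at 14.4 ± 2.37 FPKM. Cox8b, the muscle form of subunit 8, followed at 396 ± 101 FPKM, 19.1 times Cox8a at 21.6 ± 5.69 FPKM. For subunit 7a the ratio was smaller, with the muscle form Cox7a1 at 219 ± 56.9 FPKM and the liver form Cox7a2 at 82.4 ± 17.2 FPKM, a mean ratio of 2.65. Subunit 4, which senses the energy state by binding adenine nucleotides, was carried by the ubiquitous Cox4i1 at 291 ± 43.4 FPKM. Its lung and hypoxia paralog Cox4i2 had 1.41 ± 0.593 FPKM.

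The subunits without a muscle paralog ranged from 52.4 ± 5.19 FPKM for Cox7a2l to 247 ± 34.4 FPKM for Cox6b1, which faces the intermembrane space and bridges the dimer. Cox7a2l has been linked to supercomplexes of complexes III and IV, and that role was not examined in this strain. Between Cox7a2l and Cox6b1 lay Cox6c, Cox5b, Cox5a, Cox7c and Cox7b, with means of 69.5, 92.5, 136, 188 and 199.8 FPKM. Cox6b2, the testis form of subunit 6b, was listed at 0.369 ± 0.268 FPKM. For 28 of the 31 members the length behind the FPKM value lies within 1% of the union of all exons of the gene in GENCODE. That length is 3566 bases for Cox6c and 360 for Cox8b, so the order between genes depends on that choice. The exceptions are Cox6b2 (1181 bases against 1108), Cox14 (2326 against 723) and Pet117 (953 against 693).

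All 15 factors stood below 12 of the 16 subunits. Apart from Pet117 they ran from 29.9 ± 4.499 FPKM for Coa3, an early chaperone of the newly made MT-CO1 protein, down to 1.04 ± 0.159 FPKM for Coa4, a small intermembrane-space protein. Cox14, the partner of Coa3, whose length behind the FPKM exceeds that of its GENCODE exons as given above, had 21.7 ± 4.33 FPKM. The enzymes of haem a synthesis, Cox10 and Cox15, had 8.73 ± 0.880 and 4.39 ± 0.288 FPKM. Surf1, which acts early in core assembly and is mutated in human Leigh syndrome, had 8.30 ± 1.53 FPKM. Factors of mitochondrial gene expression were Taco1, a translational activator of MT-CO1, at 17.1 ± 2.44 FPKM and Lrpprc, which stabilises mitochondrial messenger RNA, at 8.47 ± 0.843 FPKM. Pet117 was listed at 0.0439 ± 0.0239 FPKM, and all 693 bases of its exons overlap those of Kat14 on the same strand, so its value was not read further.

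**Figure D1:**
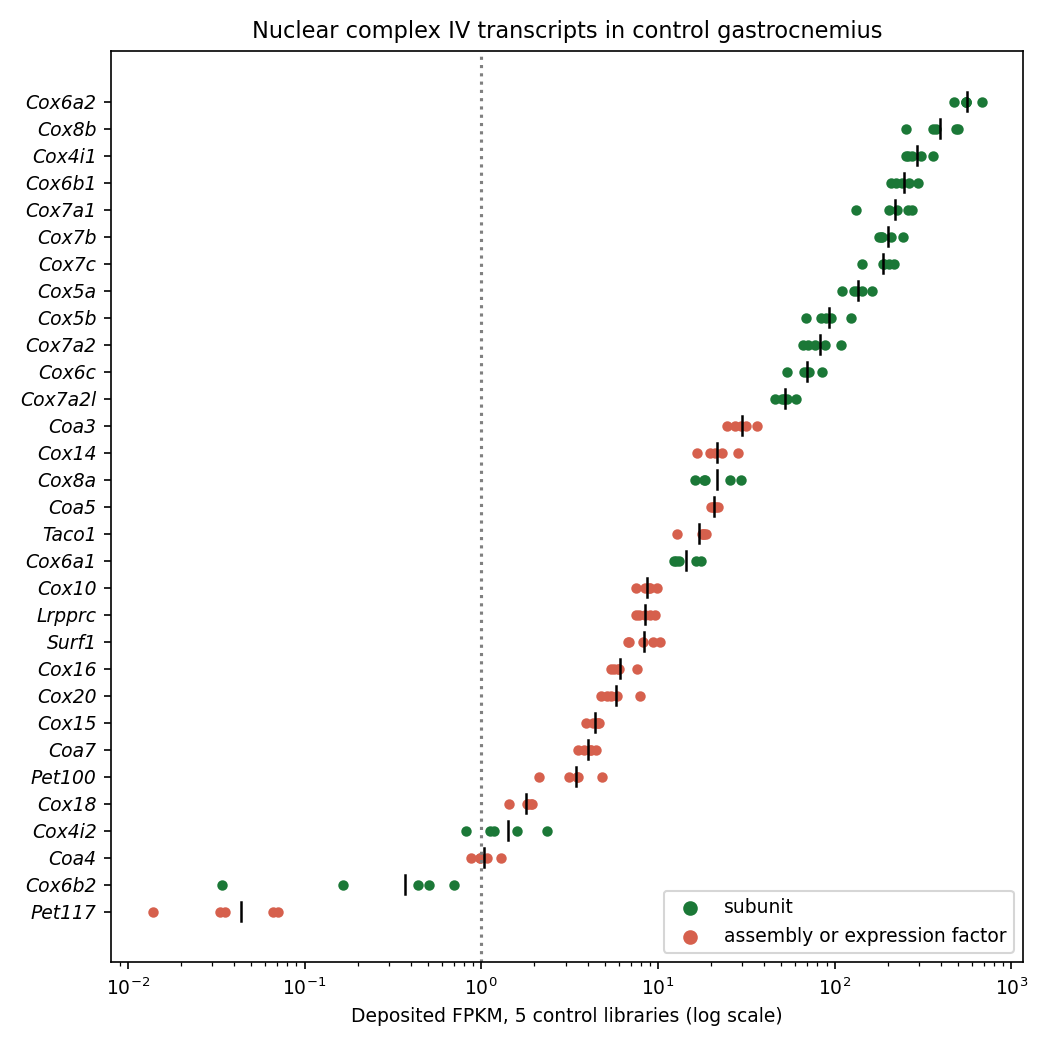
Deposited FPKM of the 31 members in the 5 Control libraries, on a log axis, with a point for each library and a line at the mean; subunits are green and factors red, and the dotted line marks 1 FPKM. Cox6a2 and Cox8b lead, 12 of the 16 subunits lie above every factor, and Cox6b2 and Pet117 lie under 1.

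Sequences at the start of genes are shown for 4 members, a muscle form (Cox8b), its ubiquitous paralog (Cox8a), the ubiquitous paralog of the leading subunit (Cox6a1) and the first enzyme of haem a synthesis (Cox10), because they show where the motifs of known regulators of respiratory genes lie among the members. Each window runs from 250 bases before to 50 bases after the start of the gene in RefSeq on GRCm38.p6 and is written in the direction of the gene, with capitals for motif letters. The windows are chr7:140900397-140900696 (minus strand) for Cox8b, chr19:7217567-7217866 (minus strand) for Cox8a, chr5:115348909-115349208 (minus strand) for Cox6a1 and chr11:64079423-64079722 (minus strand) for Cox10.
Cox8b: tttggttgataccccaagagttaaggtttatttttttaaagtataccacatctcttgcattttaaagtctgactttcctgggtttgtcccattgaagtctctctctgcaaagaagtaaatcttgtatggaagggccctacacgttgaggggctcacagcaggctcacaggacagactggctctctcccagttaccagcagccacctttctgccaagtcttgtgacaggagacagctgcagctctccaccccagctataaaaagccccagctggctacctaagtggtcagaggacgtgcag
Cox8a: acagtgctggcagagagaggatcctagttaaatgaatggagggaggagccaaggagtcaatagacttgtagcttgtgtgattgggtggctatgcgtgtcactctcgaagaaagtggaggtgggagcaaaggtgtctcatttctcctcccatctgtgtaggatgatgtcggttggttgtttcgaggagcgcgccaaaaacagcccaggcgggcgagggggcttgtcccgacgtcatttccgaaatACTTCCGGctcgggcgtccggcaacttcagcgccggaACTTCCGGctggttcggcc
Cox6a1: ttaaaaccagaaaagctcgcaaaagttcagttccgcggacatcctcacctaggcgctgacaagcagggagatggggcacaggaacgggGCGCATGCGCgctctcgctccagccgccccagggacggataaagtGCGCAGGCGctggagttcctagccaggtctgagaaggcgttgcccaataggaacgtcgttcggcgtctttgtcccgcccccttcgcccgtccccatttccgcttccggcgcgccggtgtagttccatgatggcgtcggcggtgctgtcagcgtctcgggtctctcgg
Cox10: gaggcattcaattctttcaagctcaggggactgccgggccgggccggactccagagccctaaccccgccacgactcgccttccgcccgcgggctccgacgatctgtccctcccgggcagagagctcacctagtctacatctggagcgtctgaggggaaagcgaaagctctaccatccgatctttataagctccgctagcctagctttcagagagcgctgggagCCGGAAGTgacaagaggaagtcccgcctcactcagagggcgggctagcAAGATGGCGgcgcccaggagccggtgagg

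The letters searched, on both strands, were GCGCANGCG for NRF1, CCGGAAGT for the ETS family, to which GABPA (NRF-2) belongs, and AAGATGGCG for YY1. RefSeq windows were found for 26 of the 31 members, 27 windows in all, with none at hand for Cox4i1, Cox4i2, Cox6a2, Cox6c and Cox18. The ETS letters stood in 5 members' windows, those of Cox8a, Cox10, Cox14, Cox15 and Cox16, which is 18.5% of their windows against 3.89% of all 32851 windows in the table. In Cox8a they occur at 2 places, both on the reverse strand, and in Cox10 once, at position -27 from the start, with the YY1 letters downstream of the start. NRF1 letters stood in the windows of Cox6a1 and Coa5, 7.41% against 6.25% of all windows, and 2 of the 3 matches in Cox6a1 overlap each other. The YY1 letters were found in Cox10 alone among the members, 3.70% against 1.40%. Letters of at least 1 of the 3 motifs stood in the windows of 7 of the 26 genes, 25.9% of the members' windows against 10.6% of all windows. The remaining genes included the muscle forms Cox8b and Cox7a1, and also the paralog Cox7a2 and the subunits Cox5a, Cox5b, Cox6b1, Cox7b and Cox7c. The members' windows had a median GC content of 57.7% against 52.7% for all windows, and a match is a description of letters, not a site.

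Under NAC alone the nuclear subunits had lower mean levels than Control in 14 of 15 tested cases, but no member passed the test. The median log2 fold of the 15 subunits was -0.27, and that of the 14 tested factors was -0.072. Members moved together within a library, so they are not independent cases. The library medians of the members, as log2 deviations from the Control mean, had a within-group SD of 0.17. Over all 29 members, 24 had a negative log2 fold and the median was -0.17, where 50% of the 9696 genes tested had a negative fold and their median was 0.00031. The edgeR quasi-likelihood test with Benjamini-Hochberg adjustment called 0 of the 29 members, against 0.217% of all genes tested, and DESeq2 and limma called 0 as well. At an unadjusted p under 0.05 there were 9 members with a lower level, against 3.52% of all genes, and 0 with a higher level, against 3.92%. The smallest adjusted p of a member was 0.506, for Cox6b1.

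Cox6b1 read 215, 244, 195, 183 and 221 CPM in Control libraries 1 to 5 and 169, 205, 164, 129 and 183 CPM in NAC libraries 1 to 5. NAC 4 was the lowest of the 10, NAC 1 and NAC 3 also lay under every Control library, NAC 5 was level with the lowest Control library and NAC 2 lay inside the Control range, so the groups overlapped. The log2 fold was -0.32 (SE 0.099). Without NAC 4 it was -0.23 (SE 0.083).

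Cox8b, the muscle form of subunit 8, had the most negative fold of the subunits. Its Control libraries held 226, 203, 160.4, 113 and 159.5 CPM and its NAC libraries 114, 185, 121, 60.5 and 131 CPM. Control 4 was as low as NAC 1, and NAC 2 lay above 3 of the 5 Control libraries. Its log2 fold was -0.50 (SE 0.23, adjusted p = 0.638, edgeR). Cox7a1, the muscle form of subunit 7a, ran alongside with 175, 172, 133, 86.95 and 143 CPM in Control and 99.4, 149, 100.5, 57.1 and 125 CPM in NAC. NAC 4 was again lowest and Control 4 second lowest. Its log2 fold was -0.42 (SE 0.20, adjusted p = 0.638, edgeR). When NAC 4 was left out, the folds were -0.32 (SE 0.20) for Cox8b and -0.26 (SE 0.17) for Cox7a1.

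Cox6a2, first of the members by Control FPKM though not by CPM, read 472, 537, 395, 462 and 449.6 CPM in Control. In NAC it read 406, 433, 387, 272 and 417 CPM. The 4 NAC libraries other than NAC 4 lay between 387 and 433 CPM, inside the Control range or just under it. Cox4i1 had the same shape, with 534, 647, 486, 495 and 568 CPM in Control and 475, 523, 474, 317 and 522 CPM in NAC, and NAC 4 was again far the lowest. Their log2 folds were -0.27 (SE 0.12) and -0.24 (SE 0.12). The matrix-facing subunits Cox5a and Cox5b, of which Cox5b binds zinc, had log2 folds of -0.28 (SE 0.13) and -0.32 (SE 0.14). Cox6c and Cox7c, small membrane-spanning subunits, had -0.27 (SE 0.12) and -0.32 (SE 0.12). Leaving NAC 4 out gave log2 folds of -0.17 for Cox6a2, -0.13 for Cox4i1, -0.14 for Cox5a, -0.20 for Cox5b, -0.18 for Cox6c and -0.22 for Cox7c, and the largest SE among these was 0.12. Reads of Cox5b, Cox6c and Cox7c are uncertain, because the table also holds the near copies Cox5b-ps, Cox6c2 and Cox7c-ps1 at mean FPKM values of 38.03, 8.42 and 0.964.

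Smaller log2 folds were fitted for the ubiquitous forms Cox6a1 (-0.11), Cox7a2 (-0.19) and Cox8a (-0.17), for Cox7a2l (-0.15) and for Cox7b (-0.11). Cox7b, a small membrane-spanning subunit coded on the X chromosome, was the only subunit that was not lower in NAC 4 than in the other NAC libraries, at 275 CPM against 240.3 to 301 CPM. Cox4i2 was the only subunit with a positive log2 fold, 0.16 (SE 0.26). The fold of Cox6a1 without NAC 4 turned to 0.049, and those of Cox7a2, Cox8a and Cox7a2l were -0.075, -0.011 and -0.093.

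Among the factors, Pet100 and Cox18 had the most negative folds under NAC. Pet100, a small membrane protein of complex IV assembly, read 10.9, 7.39, 7.70, 4.69 and 6.67 CPM in Control and 4.01, 8.07, 4.70, 3.16 and 5.54 CPM in NAC. Control 1 was the highest of these 10 libraries and NAC 4 the lowest, and NAC 2 lay above 4 of the 5 Control libraries. The log2 fold was -0.55 (SE 0.22, adjusted p = 0.638, edgeR). Pet100 shares 941 exon bases with Pcp2 on the opposite strand, and whether strand was used in counting is not given in the sources used here. Cox18, which inserts the MT-CO2 tail into the inner membrane, had 6.21, 6.08, 4.86, 6.51 and 6.00 CPM in Control and 4.83, 5.32, 4.25, 3.47 and 4.69 CPM in NAC. Apart from Control 3, each Control library lay above all 5 NAC libraries. Its log2 fold was -0.40 (SE 0.13, adjusted p = 0.529, edgeR). In the fit without NAC 4 the folds were -0.42 (SE 0.22) for Pet100 and -0.31 (SE 0.13) for Cox18.

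The pair Cox14 and Coa3, which bind newly made MT-CO1, had log2 folds of -0.24 (SE 0.16) and -0.20 (SE 0.13). For the haem a enzymes the folds were -0.051 for Cox10 and -0.15 for Cox15, and for the MT-CO2 factors Cox16 and Cox20 they were -0.17 and -0.012. Surf1 had -0.074, Coa4 -0.069, Coa5 0.10 and Coa7 0.049, the last 3 being intermembrane-space proteins. Taco1 and Lrpprc, which act on mitochondrial translation and messenger stability, had 0.039 and 0.0015. None of these factors passed the edgeR test, and the largest SE among them was 0.20, for Coa4. Cox16 shares 2130 exon bases with Gm20498 on its own strand and Cox20 shares 804 with Hnrnpu on the opposite strand, so their values carry that doubt. Without NAC 4 the folds of Cox14, Coa3, Cox15 and Cox20 were -0.11, -0.082, -0.087 and -0.15, and those of Cox10, Surf1, Taco1 and Lrpprc had another sign, at 0.021, 0.0026, -0.063 and -0.047.

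Much of this difference came with a single library. NAC 4 had a median deviation of -0.69 on the log2 scale from the Control mean over the 29 members, while the other NAC libraries ranged from -0.20 to 0.025 and the Control libraries from -0.19 to 0.22. Without NAC 4 the subunits lay lower in 13 of 15 cases, the median log2 fold of the members was -0.11 in place of -0.17, that of the subunits -0.14 in place of -0.27 and that of the factors -0.072 as before, and 2 members in place of 9 lay lower at an unadjusted p under 0.05, Cox6b1 and Cox18. The median was also -0.11 without Control 2, the library with the highest subunit sum, with 4 members under that threshold. The number was 3 without Control 1, 5 without Control 5, 4 without NAC 1, 5 without NAC 3 and 13 without NAC 2. The share of all genes that was lower moved as well, to 2.17% without NAC 4, 1.68% without Control 2, 2.61% without Control 1, 2.88% without Control 5, 2.87% without NAC 1, 3.21% without NAC 3 and 7.14% without NAC 2. With every library kept, 2 members were lower when only the NAC and Control groups were fitted, against 1.85% of all genes. In limma on log2(FPKM + 1) 3 were lower, against 1.23%, and 1 was higher, Coa5, against 10.6%.

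**Figure D2:**
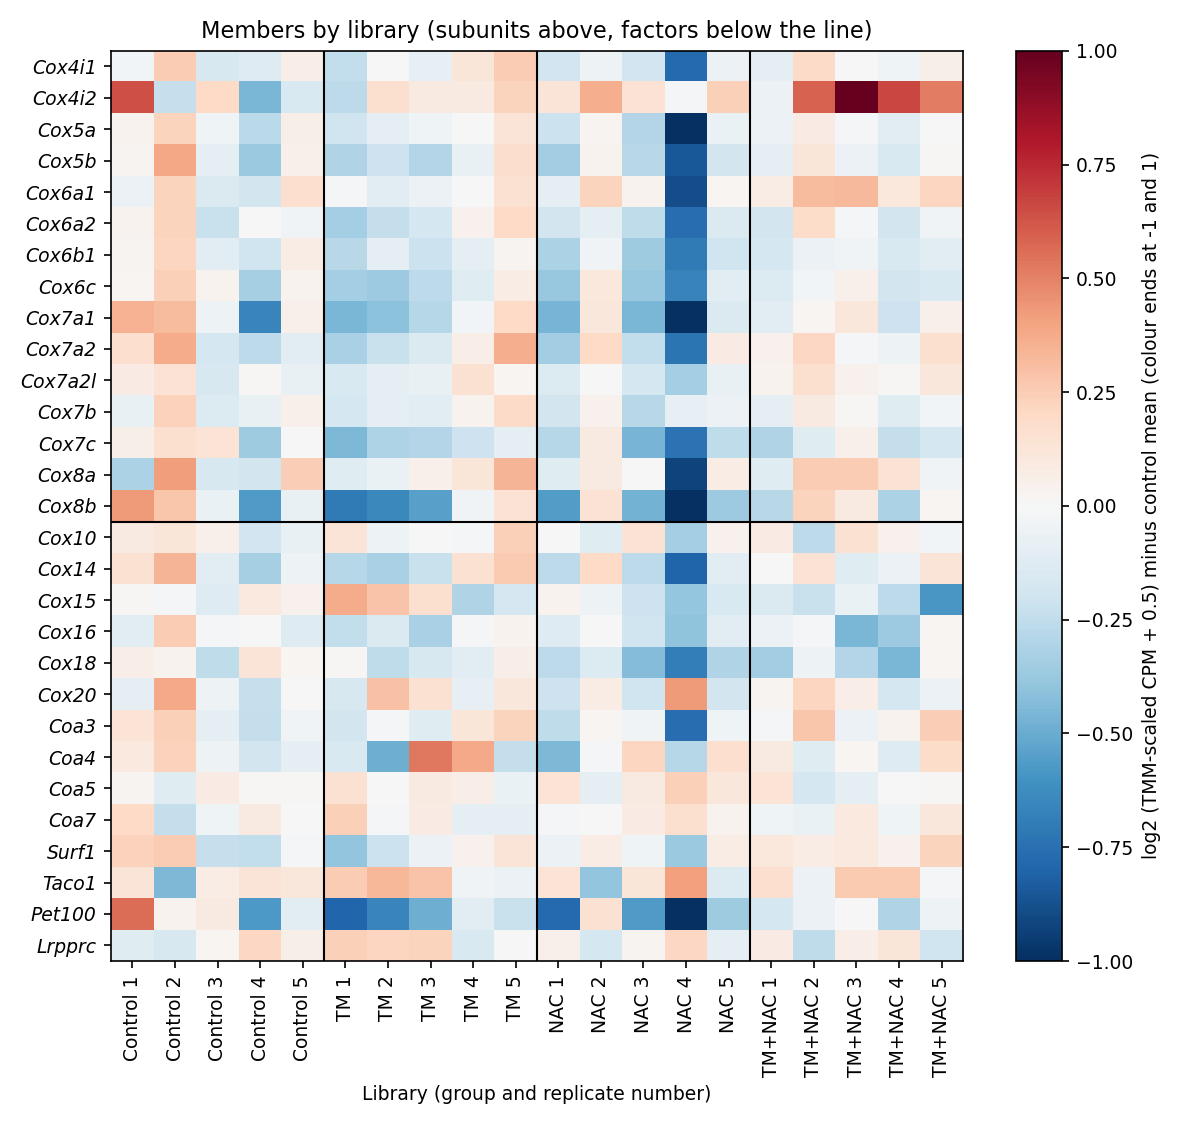
Each row is a tested member, each column a library, and the colour is the log2 level minus the mean of the Control libraries, with subunits above and factors below the line. The column of NAC 4 is low for most subunits, Control 4, TM 1, NAC 1 and NAC 3 share a weaker form of that pattern, and Cox4i2 is high in 4 TM+NAC libraries.

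Transcript length moved with this pattern. Over the 538 tested genes whose longest coding transcript is at most 1000 bases, NAC 4 lay at a median of -0.49 on the log2 scale from the mean of the other NAC libraries, over the 1901 genes above 1000 and up to 2000 bases at -0.22, over the 3455 genes above 2000 and up to 4000 bases at 0.023, and over the 2776 longer genes at 0.25. The members in these classes had medians of -0.65 (16 members), -0.26 (7 members), -0.081 (4 members) and -0.021 (2 members). In the NAC against Control comparison the shortest class had a median log2 fold of -0.16 over all genes and -0.26 over the members, and without NAC 4 these were -0.080 and -0.14. These length classes were chosen after the values of NAC 4 were seen, and the part of length in the members' difference was not tested. Cox20, at 471 bases, lay 0.55 higher in NAC 4 on the log2 scale, against the direction of its class.

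**Figure D3:**
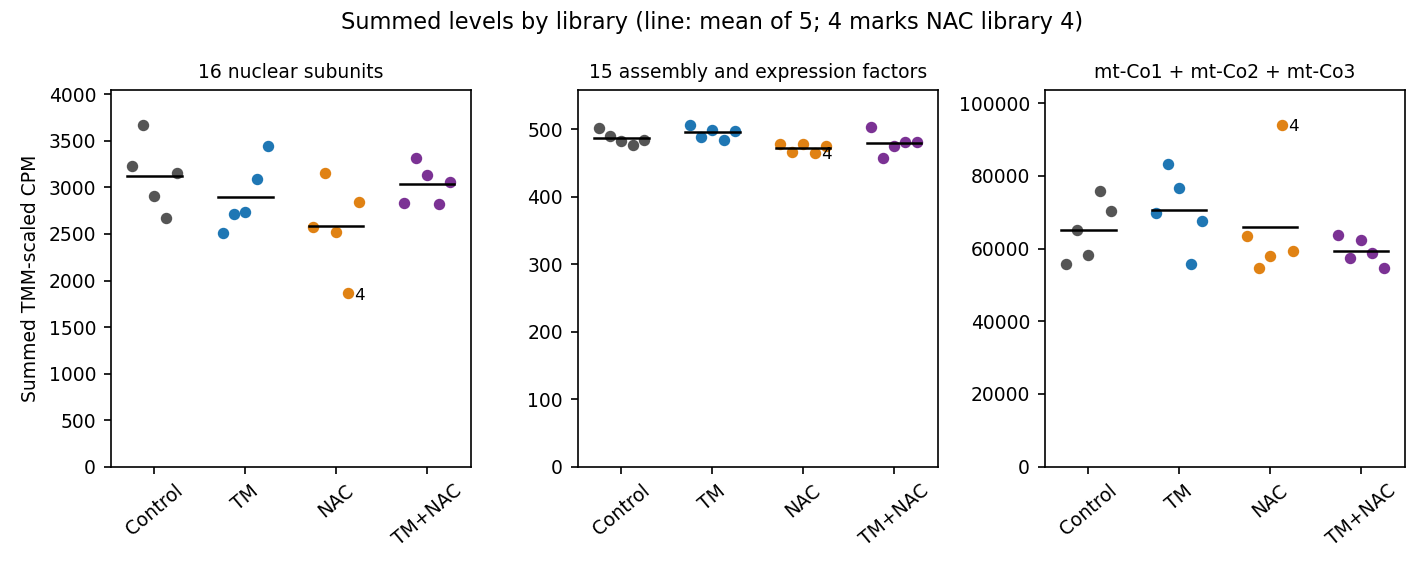
Summed CPM of the 16 nuclear subunits, the 15 factors and the 3 mitochondrially coded core subunits in each library, by group, with a line at the group mean. NAC 4 holds the lowest subunit sum (1862) and the highest core sum (94059), while the factor sums stay between 458 and 507.

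Tetrathiomolybdate alone gave the members a small median log2 fold. Of the 29, 17 had a negative log2 fold, against 50.2% of all genes, and the median was -0.033. The median was -0.050 for the subunits and 0.037 for the factors. All tested subunits had a negative fold apart from Cox4i1 (0.011), Cox4i2 (0.022) and Cox8a (0.046). The edgeR quasi-likelihood test with Benjamini-Hochberg adjustment called 0 members and 0% of the 9696 genes, DESeq2 and limma called 0 members, and the smallest adjusted p of a member was 0.999. At an unadjusted p under 0.05, 2 members were lower, Cox7c and Pet100, against 1.8% of all genes, and 0 were higher, against 1.57%. On the FPKM scale with limma the median was 0.035, where the median of all genes was itself 0.053, and without Control 2 the median was 0.016, so its sign is not settled.

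Cox7c read 267, 285, 281, 199 and 257 CPM in Control and 187, 206, 209, 221 and 239.8 CPM in TM. Every TM library lay under the 4 Control libraries other than Control 4, and Control 4 fell inside the TM range. Its log2 fold was -0.28 (SE 0.12, adjusted p = 0.999, edgeR). Pet100 had 3.96, 4.38, 5.00, 6.66 and 6.12 CPM in TM, a log2 fold of -0.51 (SE 0.22, adjusted p = 0.999, edgeR). TM 1 to 3 lay at or near the level of Control 4 and TM 4 and TM 5 within the Control range. Cox8b and Cox7a1 had 103, 107, 115, 163 and 186 CPM and 100.1, 103, 113, 135 and 158 CPM, with log2 folds of -0.36 (SE 0.23) and -0.22 (SE 0.20). In both, TM 1 to 3 lay near Control 4, the lowest Control library, and TM 5 near the upper Control libraries. Cox4i1, Cox6a1, Cox10, Coa3 and Coa7 had log2 folds between -0.015 and 0.061, and the SE values of these 5 ran from 0.085 to 0.15.

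With both agents given, the nuclear subunits stood higher than under NAC alone in 15 of 15 tested cases, again without a member passing the test. Of the 29 members, 24 had a positive log2 fold and 5 a negative one, against 50.4% negative over all genes, and the median was 0.20. The median was 0.25 for the subunits and 0.064 for the factors. The edgeR quasi-likelihood test with Benjamini-Hochberg adjustment called 0 members against 0.0309% of all genes, DESeq2 and limma called 0, and the smallest adjusted p of a member was 0.409. At an unadjusted p under 0.05, 4 members were higher, Cox4i1, Cox6a1, Cox7a2l and Coa3, against 4.98% of all genes, and 0 were lower, against 6.92%. This comparison uses the same NAC libraries as the one against Control, so the 2 sets of folds are not independent of each other. Nor are the members independent cases, as given above. Without NAC 4 the median was 0.12, with 1 member under that threshold, Cox7a2l. The number was also 1 without NAC 1, TM+NAC 2 or TM+NAC 5 and 2 without TM+NAC 3. Without NAC 2 there were 16 higher and 1 lower, Coa5. Over all genes the share that was higher was 2.56% without NAC 4, 3.89% without NAC 1 and 3.47% without TM+NAC 2. It was 3.83% without TM+NAC 5, 4.25% without TM+NAC 3 and 9.19% without NAC 2, where 10.2% was lower.

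In TM+NAC against NAC the groups did not overlap for 1 of the 29 members, Cox7a2l. The same held for 2.63% of all tested genes, so the members' share is near that of the whole table. Cox7a2l read 84.9, 93.5, 82.8, 73.7 and 88.9 CPM in NAC and 96.01, 104, 96.4, 94.3 and 101 CPM in TM+NAC. The highest NAC library, NAC 2, lay just under the lowest TM+NAC library, TM+NAC 4. The log2 fold was 0.22 (SE 0.075, adjusted p = 0.409, edgeR).

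Cox6a1, the ubiquitous form of subunit 6a, had 11.4, 14.3, 12.5, 6.37 and 12.4 CPM in NAC and 12.9, 15.3, 15.4, 13.1 and 14.2 CPM in TM+NAC. NAC 2 lay inside the TM+NAC range, the other 4 NAC libraries under it. The log2 fold was 0.32 (SE 0.15). Coa3 had 26.6, 32.3, 30.98, 18.6 and 30.9 CPM and 31.5, 38.6, 30.6, 32.7 and 37.8 CPM, a log2 fold of 0.30 (SE 0.13), with NAC 4 lowest and NAC 2, 3 and 5 close to the lower TM+NAC libraries. Cox4i1 had 511, 621, 545, 528 and 564 CPM in TM+NAC and a log2 fold of 0.26 (SE 0.12), and NAC 2 and NAC 5 lay within that range. Without NAC 4 these folds were 0.17 (SE 0.098) for Cox6a1, 0.18 (SE 0.11) for Coa3 and 0.15 (SE 0.095) for Cox4i1, and that of Cox7a2l was 0.17 (SE 0.070).

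The widest log2 fold here was that of Cox4i2, 0.53 (SE 0.26, adjusted p = 0.410, edgeR), followed by Cox8b at 0.42 (SE 0.23), Pet100 at 0.38 (SE 0.22) and Cox7a1 at 0.36 (SE 0.20). The remaining subunits, Cox5a, Cox5b, Cox6a2, Cox6b1, Cox6c, Cox7a2, Cox7b, Cox7c and Cox8a, had log2 folds from 0.080 to 0.27. Leaving out NAC 4 gave 0.47 for Cox4i2, 0.26 for Cox8b, 0.25 for Pet100 and 0.20 for Cox7a1, and all 15 subunits were again positive. The factors with a negative fold were Coa5, Cox15, Coa7, Lrpprc and Cox16, from -0.12 to -0.0039.

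**Figure D4:**
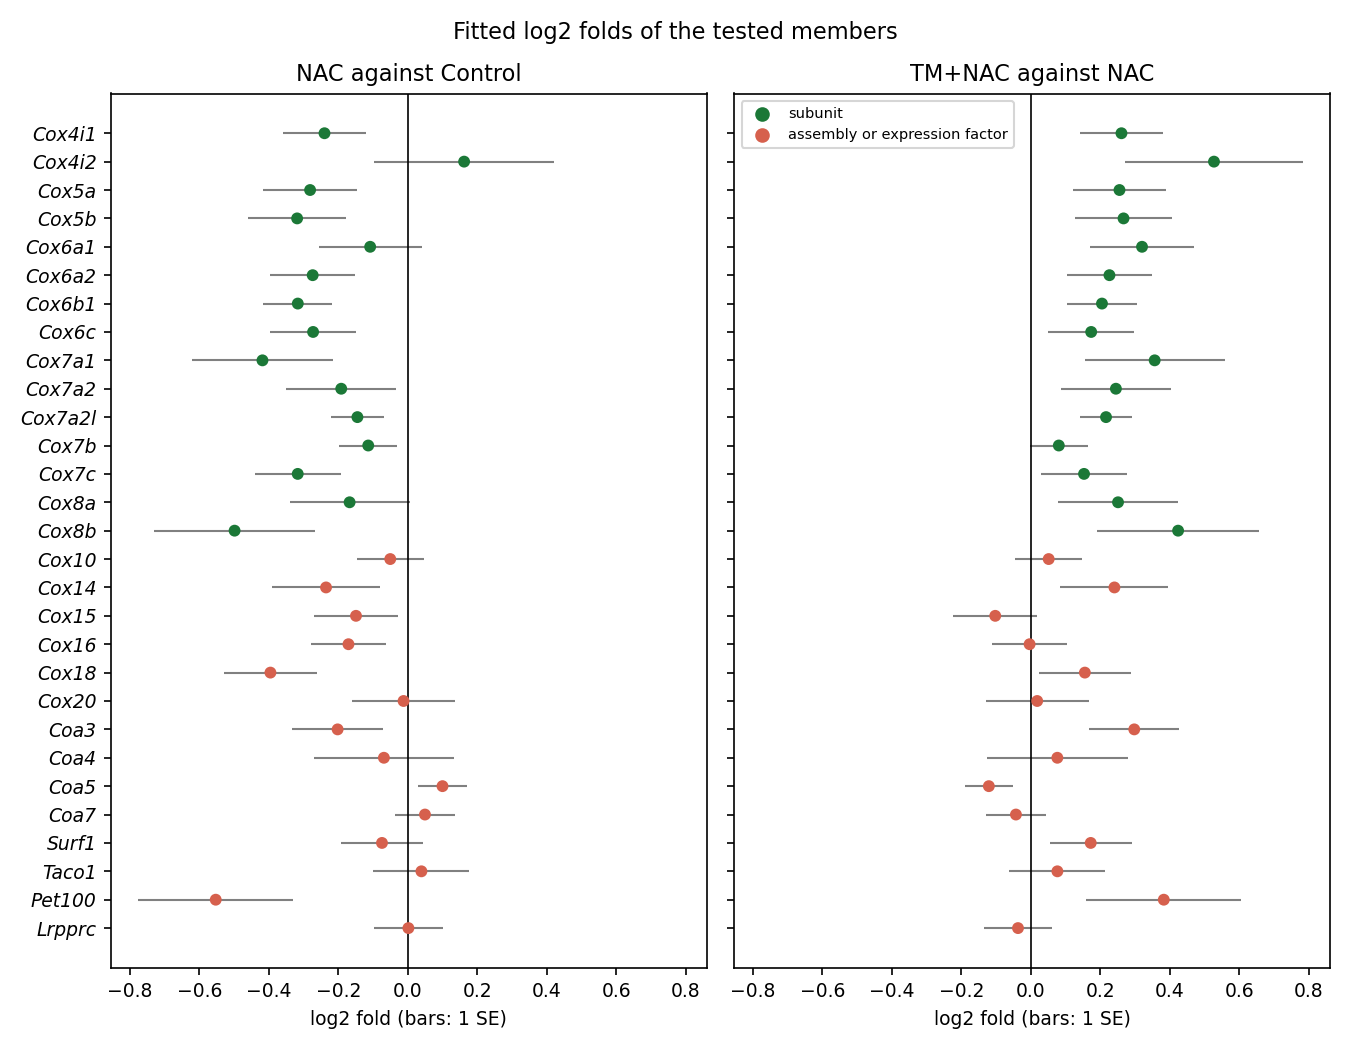
Fitted log2 folds of the 29 tested members with bars of 1 SE, for NAC against Control on the left and TM+NAC against NAC on the right; subunits are green and factors red. The subunits lie left of 0 in the first panel, Cox4i2 apart, and right of 0 in the second, and the factors lie on both sides of it, with the factor Pet100 furthest left in the first; both panels use the same NAC libraries and no member passed the test in either.

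Compared with Control, the combined treatment gave a median log2 fold of -0.021 over the members, with 15 negative folds of 29 against 52.1% of all genes. The edgeR quasi-likelihood test with Benjamini-Hochberg adjustment called 0 members against 0.351% of all genes, DESeq2 and limma called 0, and the smallest adjusted p of a member was 0.504. At an unadjusted p under 0.05, 1 member was higher, Cox4i2, against 2.97% of all genes, and 1 was lower, Cox15, against 3.41%. On the FPKM scale with limma the members' median was 0.094, where the median of all genes was 0.092, so the shift is that of the whole table. Without Control 1 the median was 0.017 and without Control 2 it was 0.034.

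Cox4i2 had 2.33, 1.05, 1.58, 0.820 and 1.13 CPM in Control, 1.01, 1.53, 1.43, 1.43 and 1.62 CPM in TM, 1.48, 1.83, 1.51, 1.29 and 1.63 CPM in NAC and 1.25, 2.23, 3.19, 2.38 and 2.09 CPM in TM+NAC. TM+NAC 2 to 5 lay above all TM and NAC libraries, TM+NAC 1 lay among them, and Control 1 was about as high as TM+NAC 4, so the groups overlapped. The log2 fold was 0.69 (SE 0.26, adjusted p = 0.504, edgeR) against Control and 0.67 (SE 0.26, adjusted p = 0.893, edgeR) against TM. Over the libraries left out, the fold against Control ran from 0.53 without TM+NAC 3 to 0.97 without Control 1, and it was 0.84 without TM+NAC 1. Without TM+NAC 3, 0 members were higher at an unadjusted p under 0.05 in either comparison.

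Cox15, haem a synthase, read 26.3, 25.7, 23.8, 27.97 and 26.9 CPM in Control, 33.8, 31.9, 29.2, 21.1 and 23.2 CPM in TM and 23.6, 22.2, 24.8, 21.7 and 17.3 CPM in TM+NAC. TM 1 to 3 were the highest of these libraries, TM 4 and TM 5 lay within the TM+NAC range, and TM+NAC 5 was the lowest. Its log2 fold was -0.25 (SE 0.12, adjusted p = 0.779, edgeR) against Control and -0.35 (SE 0.12, adjusted p = 0.777, edgeR) against TM. Cox10, the enzyme before it in haem a synthesis, had log2 folds of 0.00038 (SE 0.097) and -0.060 (SE 0.097) in the same comparisons.

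Set against TM alone, the combined treatment gave a median of 0.037 with 11 negative folds, against 49.4% of all genes. The edgeR quasi-likelihood test with Benjamini-Hochberg adjustment called 0 members against 0.0309% of all genes, and DESeq2 and limma called 0. At an unadjusted p under 0.05, Cox4i2 was higher, against 2.18% of all genes, and Cox15 lower, against 3.01%. Without TM 1 the median was -0.0073, so its sign is not settled. Of the 15 subunits, 14 had a positive fold, the exception being Cox7b at -0.0010, and of the 14 factors 10 had a negative fold. Without TM 1 the subunits were split into 9 positive and 6 negative folds.

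The interaction asks whether the TM difference was the same with and without NAC. All 15 tested subunits and 7 of the 14 factors had a positive interaction, 22 of 29 members in all, where 50.6% of all genes were negative, and the median was 0.28. As in the other comparisons, the members were not independent cases. The edgeR quasi-likelihood test with Benjamini-Hochberg adjustment called 0 members against 0.0103% of all genes, DESeq2 and limma called 0, and the smallest adjusted p of a member was 0.597. At an unadjusted p under 0.05, 7 members were positive, Cox5b, Cox6b1, Cox6c, Cox7a2l, Cox7c, Cox8b and Pet100, against 3.51% of all genes, and 0 were negative, against 3.77%. The widest log2 values were 0.90 (SE 0.32) for Pet100, 0.78 (SE 0.33) for Cox8b and 0.57 (SE 0.29) for Cox7a1. The highest value of a member was 0.76 without NAC 4. Without NAC 4 the median was 0.18 with 4 such members, and without TM 1 and NAC 4 together it was 0.13 with 1. The number was 3 without Control 1, TM 1, TM 2 or TM+NAC 2, 2 without Control 2, 4 without TM 3 and 11 without NAC 2, where Coa5 also passed the threshold with a negative value. The share of all genes that was positive at that threshold was 2.43% without NAC 4, 2.08% without Control 2 and 7.04% without NAC 2. It was 2.51% without Control 1, 2.4% without TM 1, 2.3% without TM 2, 2.41% without TM 3 and 2.43% without TM+NAC 2. Without TM 1 and NAC 4 together it was 1.83%. The share that was negative without NAC 2 was 6.05%. Short genes as a whole shared the sign, with a median interaction of 0.26 over the 538 genes of at most 1000 bases and 0.33 over the 16 members among them. Without NAC 4 these medians were 0.16 and 0.21. The part of length was not tested.

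The balance between paralogs was measured as the ratio of deposited FPKM within a library, which does not depend on how libraries are scaled. Over 4 pairs and 5 comparisons, 20 exact permutation tests were made, two-sided, and none passed after Benjamini-Hochberg adjustment. The smallest adjusted p was 0.286, and 5 libraries against 5 can give no exact p below 0.00794. The ratio of Cox6a2 to Cox6a1 was 41.9, 38.9, 37.3, 44.8 and 33.8 in Control, 31.2, 35.99, 36.01, 40.4 and 40.4 with TM, 36.8, 31.3, 32.1, 44.1 and 34.8 with NAC and 32.7, 35.3, 30.5, 31.9 and 32.7 with TM+NAC. The TM+NAC ratios filled the narrow low end of the range, although 1 Control, 1 TM and 3 NAC libraries lay among them. Apart from NAC 4 at 44.1, the NAC ratios ran from 31.3 to 36.8, against 30.5 to 35.3 with TM+NAC. The TM+NAC mean differed from that of Control by -0.27 on the log2 scale (exact permutation p = 0.0159, adjusted p = 0.286).

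For Cox4i2 to Cox4i1 the mean log2 ratio was -7.77 ± 0.65 in Control, -7.66 ± 0.15 with TM, -7.25 ± 0.16 with NAC and -7.05 ± 0.47 with TM+NAC (mean ± SD, n = 5 each). The difference between TM+NAC and TM was 0.61 (exact permutation p = 0.0397, adjusted p = 0.286). The ratio of Cox8b to Cox8a read 30.9, 16.5, 19.6, 14.03 and 14.6 in Control and 12.2, 12.2, 12.05, 16.4 and 15.9 in TM. Control 1 was far the highest and the groups overlapped, with a difference of -0.42 on the log2 scale (exact permutation p = 0.0635, adjusted p = 0.286). Cox7a1 to Cox7a2 had mean ratios of 2.65 (Control), 2.37 (TM), 2.24 (NAC) and 2.46 (TM+NAC). Its smallest exact permutation p was 0.111 (adjusted p = 0.317), for NAC against Control, where NAC 4 had the lowest NAC ratio, 1.81.

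**Figure D5:**
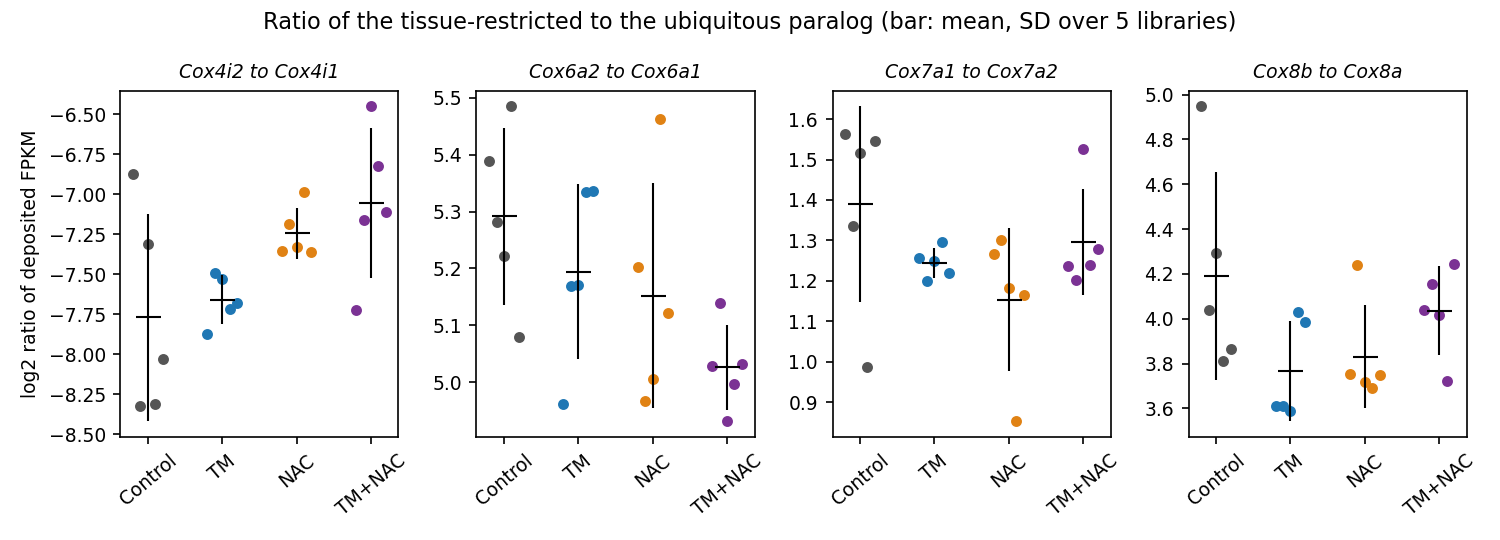
The log2 ratio of deposited FPKM within each of 4 paralog pairs, a point for each library, with the mean and SD of each group of 5; each panel has its own axis, which does not start at 0. The Cox6a2 to Cox6a1 ratios of TM+NAC sit low and close together, and those of the other pairs overlap widely between groups.

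Members also differed in how much they varied within groups. The within-group SD of the log2 level had a median of 0.21 over the members and 0.19 over all genes tested. It was widest for Cox8b (0.42), Cox7a1 (0.36), Pet100 (0.35) and Cox4i2 (0.31), and narrowest for Coa5 (0.10), Cox7a2l (0.11), Coa7 (0.12) and Cox7b (0.13). Markers of slow muscle fibres, all 8 of which passed the filter and none of which was at 0, summed to 1317 to 2471 CPM in Control, 562 to 1979 CPM in TM, 731 to 1696 CPM in NAC and 796 to 1729 CPM in TM+NAC. NAC 4 and TM 4 had the lowest sums of their groups, 731 and 562 CPM. The sum of the nuclear subunits was also lowest of its group in NAC 4, at 1862 CPM. In TM 4 it was 3095 CPM, where the TM group ran from 2505 to 3445 CPM. The part of fibre type in the members' levels was not tested, and in bulk tissue fewer cells of a type and less RNA per cell cannot be told apart.

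The other genes of the pathway were read from the same fit. Over its comparisons it called 0 to 0.351% of all genes tested. The mitochondrially coded core subunits mt-Co1, mt-Co2 and mt-Co3 had 0 of 3 called in every comparison by the edgeR quasi-likelihood test with Benjamini-Hochberg adjustment. Their log2 folds under NAC were 0.047, -0.085 and -0.024, with SE values of 0.15, 0.12 and 0.12. In TM+NAC against TM they were -0.24, -0.26 and -0.25. At an unadjusted p under 0.05, 2 of them were lower, mt-Co2 and mt-Co3, against 3.01% of all genes. In that comparison 14 of the 15 nuclear subunits had a fold of the other sign, and 9 of 15 without TM 1. The core folds under NAC were, without NAC 4, -0.12, -0.21 and -0.16.

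Copper delivery was read from 8 genes, 7 of which passed the filter, and none of the 7 was called in any comparison. Under NAC, 6 of the 7 had a negative log2 fold and the median was -0.20, with 3 lower at an unadjusted p under 0.05, against 50% negative and 3.52% lower over all genes. Without NAC 4 all 7 were negative with a median of -0.13, the folds of Cox17 and Cmc2 described next were -0.24 and -0.13, and 0 were lower at that threshold, against 2.17% of all genes. Cox17, the copper chaperone of the intermembrane space, had -0.38 (SE 0.18, adjusted p = 0.638, edgeR), and Cmc2, a small partner protein of the same compartment, -0.21 (SE 0.092, adjusted p = 0.638, edgeR). Under TM the median of the 7 was -0.12 with 5 negative. Of 10 further complex IV factors, 9 were tested and 0 called, with 9 of 9 negative under NAC and a median of -0.22. All 9 were again negative without NAC 4, with a median of -0.14. At an unadjusted p under 0.05, 4 in place of 2 were then lower, against 2.17% in place of 3.52% of all genes. The smallest p in that list belonged to Oxa1l, which inserts proteins into the inner membrane, at -0.22 (SE 0.075, adjusted p = 0.529, edgeR), and to Smim20, which acts on newly made MT-CO1, at -0.32 (SE 0.11, adjusted p = 0.587, edgeR). Regulators of nuclear respiratory genes had 5 of 8 tested and 0 called, with a median of -0.022 under NAC. In that list the nuclear receptor Esrra had -0.14 (SE 0.12) under NAC and 0.33 (SE 0.12, adjusted p = 0.409, edgeR) in TM+NAC against NAC. Gabpa, a member of the ETS family, had 0.18 (SE 0.15) and -0.21 (SE 0.15). Without NAC 4 these were -0.039 and 0.23 for Esrra and 0.0041 and -0.025 for Gabpa.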

How the data were processed

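Bulk poly(A)-selected RNA of 20 gastrocnemius libraries was analysed from a deposited table of 31618 genes. Per the file headers, the authors give a count and an FPKM value per gene and library. The deposited counts are whole numbers without normalization, and the deposited FPKM values are relative to gene length and library depth. The submitters' processing notes name cutadapt 1.9, FastQC, HISAT2 2.2.1 and StringTie, with GRCm38. How reads were counted, whether by strand and on which annotation is not given in the sources used here. Symbols, positions, exon overlaps and transcript lengths were checked against GENCODE on GRCm38, and 27 of the 31 members had the same position there.

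Groups follow the treatment label. Library totals were 54.7 M to 90.7 M counts, and that depth sets the counting error. No pair of libraries of a group was alike within sampling noise (lowest chi-square per degree of freedom 16.2). Genes with a mean of at least 1 FPKM, 9696 in all, were fitted in a single edgeR 4.0.16 quasi-likelihood model (R 4.3.3, TMM scaling, 4 groups), with 5 pairwise contrasts and the interaction, (TM+NAC minus NAC) minus (TM minus Control). Benjamini-Hochberg adjustment ran over all 9696 genes, and an adjusted p under 0.05 was called. Standard errors were obtained as the absolute log2 fold over the root of F. The procedure was tested on simulated data.

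Paralog ratios used deposited FPKM and exact permutation tests. Alternatives were median-ratio scaling, no filter, a minimum of 5 FPKM, DESeq2 1.42.0, limma 3.58.1 on log2(FPKM + 1) and log2(FPKM + 0.1), only the groups compared, the replicate number as a block, TM 1 and NAC 4 left out together, and each library left out. All members are named, with the mitochondrial core genes and, of each other pathway list, at most the 2 genes with the smallest p under NAC. The members and lists were chosen with earlier results of these data known. A comparison of member proteins was planned and not run.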

Additional observations from a re-analysis of the deposited data

Results flagged for a closer look

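In 6 of 132 groups of 5 values, a library stood far from the other 4 by Dixon's criterion, which chance gives in about 1 of 20 groups. NAC 4 was the lowest NAC library for Cox4i1 (317 CPM, the others 474 to 523), Cox6a2 (272 CPM, the others 387 to 433) and Cox8a (8.07 CPM, the others 14.48 to 16.87). Control 2 was the lowest Control library for Taco1 (20.7 CPM, the others 30.05 to 31.23). TM+NAC 3 had the highest ratio of Cox7a1 to Cox7a2 in its group (2.88, the others 2.30 to 2.43). NAC 2 had the highest ratio of Cox8b to Cox8a in its group (18.9, the others 12.9 to 13.5).

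For Cox7c and Pet100 every TM library lay under the Control mean and every TM+NAC library above the NAC mean, so the TM difference had opposite signs without and with NAC. The interaction was 0.43 for Cox7c and 0.90 for Pet100 on the log2 scale, with an adjusted p of 0.597 for both in the edgeR quasi-likelihood test. Without NAC 4 both kept an unadjusted p under 0.05 in that test, but the NAC mean of Cox7c rose from 207 to 220.4 CPM and only 3 of the 5 TM+NAC libraries lay above it, against 5 of 5 for Pet100. Without TM 1 and NAC 4 together Pet100 alone kept it.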

How the results depend on the processing

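No member was called in any comparison under any alternative run, and of 3531 member folds recomputed, 241 had another sign than the reported one, none of them called. The members' median stayed negative in NAC against Control (-0.23 to -0.11 over the libraries left out, -0.19 to -0.11 elsewhere) and positive in TM+NAC against NAC (0.12 to 0.27, and 0.12 to 0.27) and in the interaction (0.18 to 0.34, and 0.13 to 0.29). It crossed 0 in TM against Control (-0.081 to 0.016, and -0.053 to 0.035), TM+NAC against Control (-0.044 to 0.034, and -0.043 to 0.10) and TM+NAC against TM (-0.0073 to 0.11, and -0.0052 to 0.089). On log2(FPKM + 0.1) the median of all genes in TM+NAC against Control was 0.11 and the members lay -0.014 from it.

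The labels do not say whether replicate numbers pair the libraries, and the values do not settle it. Deviations of same-numbered libraries correlated at -0.31 to 0.41. A library's best match among the 5 of another group carried its own number in 15 of 60 cases, and pairing was not tested further. With the replicate block the members' median was -0.17 in NAC against Control and 0.22 in TM+NAC against NAC, with 0 members called, and the block moved the genes called over the whole table from 21 to 10 in NAC against Control, from 34 to 41 in TM+NAC against Control and from 1 to 0 in the interaction. Over all alternatives other than leaving out 1 library, the genes called ranged from 0 to 197 in TM against Control (0 reported), 0 to 439 in NAC against Control, 0 to 566 in TM+NAC against Control, 0 to 21 in TM+NAC against TM (3 reported), 0 to 13 in TM+NAC against NAC (3 reported) and 0 to 23 in the interaction. The highest of the first 5 came without a filter, which tests 31618 genes.

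Depth limits the least covered tested subunit, Cox4i2, which had 46 to 209 counts per library, so that counting error is part of its spread, and which had the widest SE of a member in the pairwise comparisons, 0.26. The SE of a typical gene was about 0.12. Depth and the spread between libraries were not ranked as limits.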
